A study of Bos taurus with 40 samples.

Results

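The genes described here are zinc finger genes that the bovine RNA count tables list under a symbol: every row whose name begins with ZNF, ZFP, ZSCAN, ZKSCAN or ZBTB and goes on with a number. Of the 59051 rows in each table, 64 had such a name. By name they comprised 51 ZNF, 5 ZFP, 5 ZSCAN, 3 ZBTB and 0 ZKSCAN genes. Most rows carry identifiers in place of symbols, and a further 7 rows under LOC identifiers that RefSeq pairs with a fitting symbol were not counted as members. The names were chosen by spelling and not by any measured value.

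Zinc finger proteins of this kind bind DNA through repeated fingers, each a loop of the protein held in shape by a zinc ion. In many of them the fingers are joined to a KRAB domain, which recruits the co-repressor TRIM28 and, through it, histone methylation that silences genes and transposable elements. Others carry a SCAN domain, which pairs zinc finger proteins with each other, or a BTB domain, which also forms dimers and recruits repressors. In mammalian oocytes and early embryos, maternally supplied proteins of this family protect imprinted regions from losing their DNA methylation and restrain transposable elements, and the family is known for many recent, closely related copies. Because reads from near-identical copies can be shared or lost in counting, the level of any single gene of the family is uncertain here, and that uncertainty was not tested.

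In the study, granulosa cells were taken from single bovine follicles, the oocyte of each follicle was matured in vitro, and a biopsy of its cytoplasm (ooplasm), its first polar body and its cumulus cells were collected before development was followed. RNA, entered in the labels as polyadenylated, was sequenced from 8 groups of 4 libraries each. The groups were ooplasm biopsies of oocytes that reached the blastocyst stage (blastocyst group), biopsies of oocytes that stopped at cleavage (cleavage group), a separate set of biopsies that share a number with whole oocytes, those whole oocytes, and cumulus and granulosa cells of blastocyst and of cleavage oocytes. The polar body methylation data were not used here. The labels give no breed, age or treatment beyond the cell type and its ploidy, entered as diploid for every sample, and nothing says how many animals the follicles came from, so the p-values below measure the spread between these libraries. All cells of 1 kind sit in a count table of their own or, for the matched biopsies and whole oocytes, in a shared one, so a difference between cell types and a difference between tables cannot be told apart.

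Library totals, in units of 1e+06 counts, ran from 16.8 to 22.6 in the fate-labelled biopsies, 13.4 to 20.5 in the matched biopsies, 17.2 to 23.8 in whole oocytes, 7.96 to 9.59 in cumulus and 9.88 to 17.7 in granulosa libraries. Of the 22 oocyte markers listed, only H1FOO, the oocyte linker histone, stood under its symbol, at 662 to 1905 CPM (counts scaled to a library total of 1e+06) over biopsies and whole oocytes, 0 to 0.101 CPM in cumulus and 0.234 to 15.5 CPM in granulosa. Of 21 granulosa and cumulus markers only MEG3, a non-coding RNA, was found, at 0 to 5.34 CPM in fate-labelled biopsies, 0.701 to 10.5 CPM in cumulus and 0 to 6.69 CPM in granulosa, so that it did not separate biopsies from granulosa. XIST, the RNA that coats the inactive X chromosome, was on no marker list and was looked up after seeing the data. It lay between 0 and 3.46 CPM in biopsies and whole oocytes, against 189 to 435 CPM in cumulus and 63.4 to 1150 CPM in granulosa. No marker of theca, immune, red blood or endothelial cells stood under its symbol. The granulosa libraries of the fate groups stood apart: 26373 to 28629 rows reached 5 counts in the blastocyst group, against 18065 to 22039 in the cleavage group.

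Zinc finger genes were detected in all kinds of library, and they made up a small share of the RNA. At 5 counts or more, 40 to 53 of the 64 genes were detected in a fate-labelled biopsy, 37 to 41 in a matched biopsy, 40 to 46 in a whole oocyte, 55 or 56 in a cumulus library and 55 to 62 in a granulosa library. Together they held 0.0795% to 0.116% of all counts in fate-labelled biopsies, 0.0777% to 0.111% in matched biopsies, 0.0997% to 0.113% in whole oocytes, 0.0927% to 0.107% in cumulus and 0.111% to 0.194% in granulosa. In bulk RNA of this kind, fewer cells expressing a gene and less of its RNA per cell cannot be told apart.

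**Figure D1:**
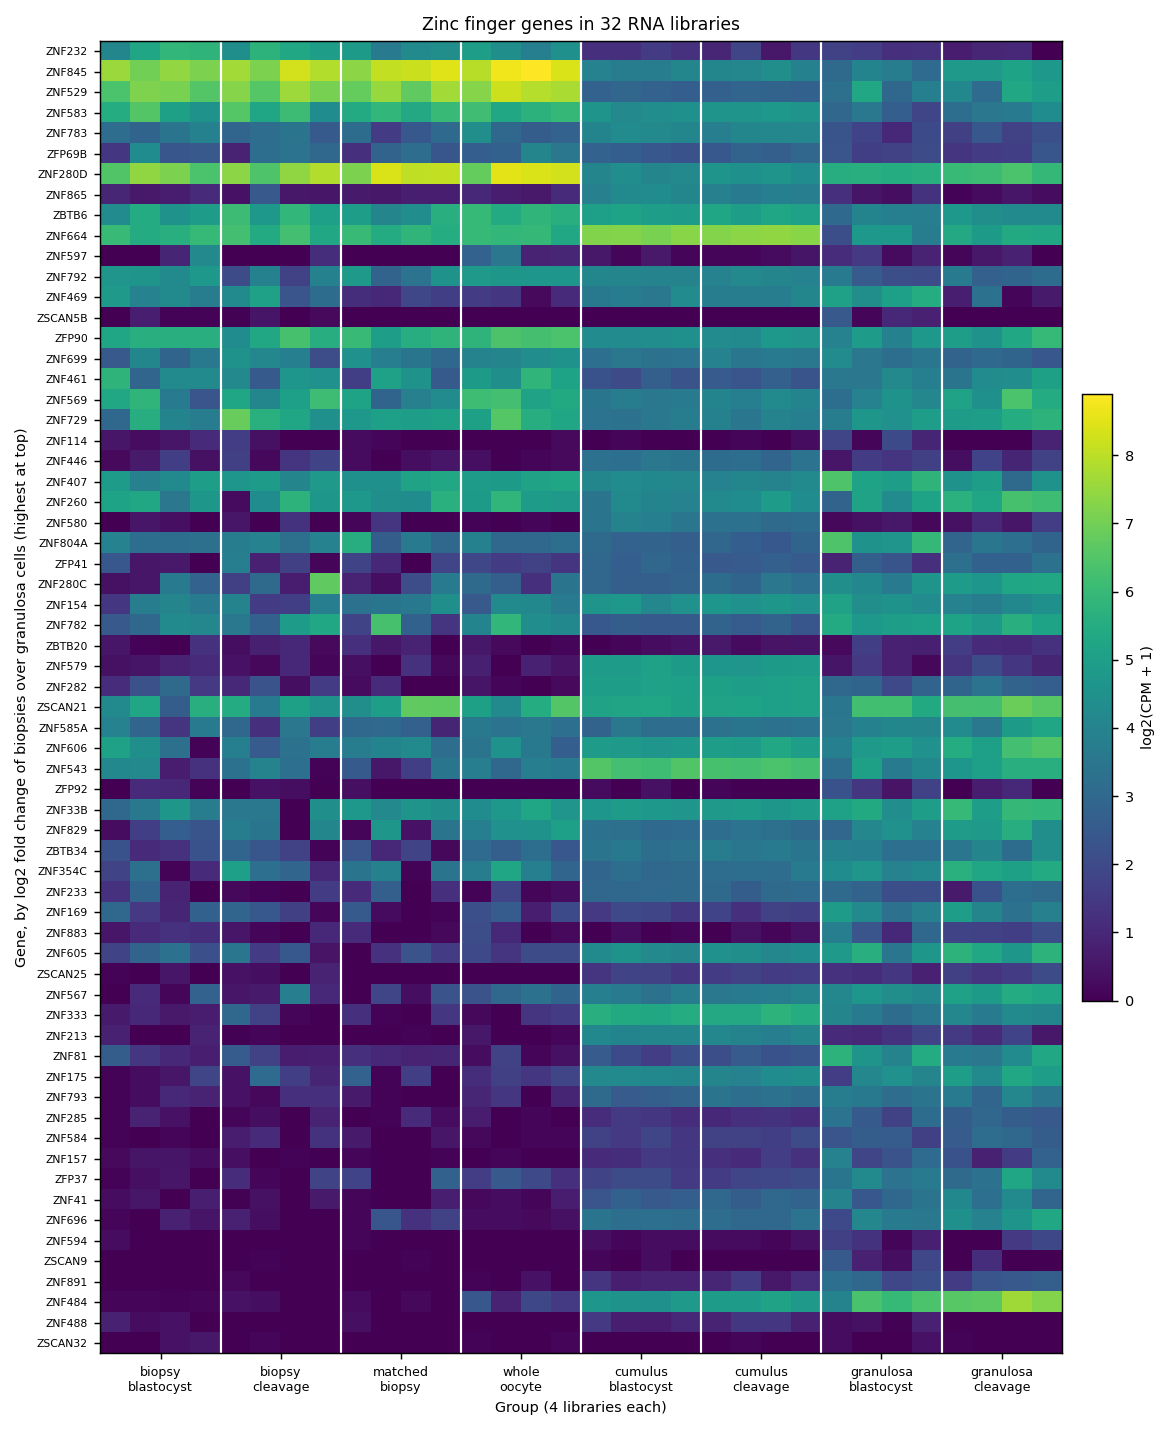
Levels of the 64 zinc finger genes (rows) in each of the 32 RNA libraries (columns, 4 per group), as log2(CPM + 1) with 1 scaling over all libraries; genes are ordered by the fold change of biopsies over granulosa, and the last 2 rows were not tested there. ZNF232, ZNF845, ZNF529 and ZNF280D are bright in biopsies and whole oocytes, while ZNF484, ZNF696 and ZNF41 are dark there and bright in granulosa.

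Biopsies were first set against granulosa cells of the same follicles, which asks which zinc finger genes differ between the oocyte's cytoplasm and its somatic neighbours. Of the 62 genes with enough counts to be tested, 9 were higher in biopsies, 29 were lower and 24 did not pass an adjusted p of 0.05 in edgeR's quasi-likelihood test. Over all 28229 rows tested, 58.2% passed, 30.9% higher and 27.3% lower in biopsies. The median log2 fold change of the zinc finger genes was -1.23, beside -0.022 over all rows. Over the 1240 tested rows with a symbol, their own or from RefSeq, it was -0.36. With a fold of at least 4 asked for as well, 4 were higher and 22 lower, 26 in all, beside 43.7% of all rows (23.3% higher, 20.5% lower). For 21 of the 62, no biopsy library overlapped any granulosa library, and 24.9% of all rows were separated in this way. By name, 7 ZNF, 1 ZFP and 1 ZBTB genes were higher, and 24 ZNF, 1 ZFP, 3 ZSCAN and 1 ZBTB genes were lower.

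ZNF845, a KRAB zinc finger gene, had the smallest p among the genes higher in biopsies. Its level was 144 CPM in the lowest biopsy, 207 at the median and 355 in the highest, against 8.45, 23.4 and 39.8 CPM in granulosa. The groups did not overlap, and the biopsy was higher than the granulosa library in 8 of 8 follicles. The log2 fold change was 3.42 ± 0.26 (SE, adjusted p = 1.33e-09 by edgeR). CPM values in this account were scaled within the libraries of each comparison, so a library can carry a slightly different value in another comparison.

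ZNF232, which encodes a SCAN domain protein, followed. It stood at 18.1 CPM in the lowest biopsy, 43.9 at the median and 66.4 in the highest, against 0, 1.37 and 2.63 CPM in granulosa. All 8 follicles had more in the biopsy, and the log2 fold change was 5.15 ± 0.54 (SE, adjusted p = 1.46e-07 by edgeR). ZNF529, a KRAB gene, averaged 147 ± 42.9 CPM in biopsies and 22.9 ± 15.4 CPM in granulosa (SD, n = 8 each), with no overlap and a log2 fold change of 2.69. ZNF583, also a KRAB gene, averaged 57.9 ± 33.7 and 10.7 ± 5.67 CPM in biopsies and granulosa, where the lowest biopsy (21.7 CPM) met the highest granulosa library (21.7 CPM) to within rounding without crossing it. ZNF280D, related to the fly insulator protein suppressor of hairy wing, averaged 162 ± 61.5 CPM in biopsies and 65.0 ± 15 CPM in granulosa.

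The remaining 4 genes higher in biopsies had log2 fold changes of 1.16 to 1.54, beside 1.33 for ZNF280D. ZBTB6 rose 1.19 on the log2 scale, ZNF783 1.54 and ZNF664 1.16, and each was higher in the biopsy in 8 of 8 follicles. With library totals in place of edgeR's scaling factors, all 3 of these calls ended, at adjusted p = 0.0624 for ZBTB6, 0.0844 for ZNF783 and 0.0672 for ZNF664. ZFP69B, a KRAB gene, had a log2 fold change of 1.35 whose adjusted p was just under the threshold at 0.04996. The call ended with the follicle as a block (adjusted p = 0.304) and without each of 13 single libraries, all but granulosa B20 and D29 and the biopsy of B14, and the log2 fold change was 0.64 without the biopsy of follicle B21. With library totals, the split of calls was 5 higher and 35 lower, beside 7307 higher and 9818 lower of all 28229 rows, while the median over all rows stood at -0.59 and that of the zinc finger genes at -1.78.

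Among the genes lower in biopsies, ZNF484, a KRAB gene, had the largest difference. It lay between 0 and 0.389 CPM in biopsies, with a median of 0.124, against 16.8 CPM in the lowest, 101 in the median and 227 in the highest granulosa library. In total, 19 counts were found over 8 biopsies and 14981 over 8 granulosa libraries. The log2 fold change was -9.43 ± 0.61 (SE, adjusted p = 2.35e-10 by edgeR), and no follicle had more in its biopsy.

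Several other genes had RNA in every granulosa library and little in biopsies. ZNF891 had 3 counts over all biopsies and 772 over all granulosa libraries, a ratio of granulosa over biopsies of 231 with a 95% counting interval of 78.8 to 1.12e+03 (exact binomial, counting error only). Its fitted log2 fold change was -8.08, or -9.56 without the biopsy of follicle B14. ZNF696 averaged 0.333 ± 0.378 CPM in biopsies and 19.9 ± 12.2 CPM in granulosa, with a log2 fold change of -5.74 that was -6.59 without the biopsy of follicle B14. ZNF793 averaged 0.756 ± 0.605 CPM in biopsies and 12.3 ± 3.37 CPM in granulosa (SD, n = 8 each for both genes). Each of these was lower in the biopsy in 8 of 8 follicles.

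Of the 5 members that RefSeq places on X, 3 that neighbour each other were among the lower genes as well. Whether being lower goes with the X chromosome was not tested. ZNF41, ZNF81 and ZNF157 are neighbouring KRAB genes on the X chromosome, by their order in RefSeq's ARS-UCD2.0 annotation. ZNF41 averaged 0.328 ± 0.306 CPM in biopsies and 12.3 ± 5.94 CPM in granulosa, ZNF81 2.47 ± 2.19 and 30.9 ± 18.7 CPM, and ZNF157 0.220 ± 0.190 and 5.85 ± 4.99 CPM (SD, n = 8 each). The log2 fold changes were -5.20, -3.59 and -4.78 in that order of genes, with adjusted p between 1.04e-05 and 5.22e-05 (edgeR). Without the biopsy of follicle D29 the value of ZNF41 was -5.81, without that of B20 the value of ZNF81 was -4.23, and without that of B14 the value of ZNF157 was -5.92.

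Other lower genes kept some RNA in biopsies. ZFP37, studied in the mouse testis, averaged 0.663 ± 1.02 CPM in biopsies and 17.1 ± 10.9 CPM in granulosa, ZNF605 5.46 ± 3.99 and 39.9 ± 17.7 CPM, ZNF175 2.06 ± 2.89 and 24.6 ± 12.9 CPM, and ZNF584 0.473 ± 0.660 and 5.92 ± 1.97 CPM (SD, n = 8 each). All 4 were lower in 8 of 8 biopsies, and of them only ZNF175 had biopsies and granulosa libraries that overlapped. Leaving out 1 biopsy moved the log2 fold changes of these 4 genes furthest as follows. ZFP37 stood at -5.05 and, without D29, at -5.76, and ZNF605 at -2.84 and, without B14, at -3.46. ZNF175 stood at -3.70, or -4.67 without D27 and -4.34 without B23, and ZNF584 at -4.69, or -5.30 without D24.

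The SCAN gene ZSCAN21 was lower by less, with a log2 fold change of -1.30 (adjusted p = 0.0135 by edgeR), and was higher in the biopsy in 2 of 8 follicles. The call of ZNF606 (log2 fold change -1.57) ended without the biopsy of B23 (adjusted p = 0.0547) or the granulosa library of D29 (adjusted p = 0.0538).

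Fate was balanced in this comparison, and the groups could be compared within fate. In the cleavage groups alone 6 of 53 genes were higher and 16 lower in biopsies, beside 6456 higher and 5165 lower of all 20409 rows. In the blastocyst groups alone 10 of 58 were higher and 16 lower, beside 6769 higher and 5536 lower of all 25408 rows. ZNF606, ZSCAN21, ZNF585A and ZNF213 did not pass in the blastocyst groups, at log2 fold changes of -0.17, -0.52, -0.31 and -1.44. In the cleavage groups ZNF333, ZNF783 and ZNF664 did not pass, at -2.60, 1.26 and 0.69. The calls of ZFP69B, ZNF354C, ZNF782, ZNF829 and ZSCAN25 ended in both, at adjusted p of 0.0575 to 0.255 (edgeR), with the sign kept. ZNF804A, a gene associated with schizophrenia in people, passed over all libraries (log2 fold change -0.80, adjusted p = 0.0468 by edgeR) but had the opposite sign in the cleavage groups alone (0.73, adjusted p = 0.203), and its call ended with the follicle as a block (adjusted p = 0.341). In 4 follicles the biopsy was higher and in 4 it was lower. The call also ended without both granulosa libraries B20 and D27 (adjusted p = 0.370) and without 5 single libraries, at adjusted p of 0.137 without granulosa B20, 0.0951 without granulosa D27, 0.0550 without granulosa B14, 0.0529 without granulosa D29 and 0.0551 without the biopsy of B23.

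Whole oocytes were then set against cumulus cells, the somatic cells that surround the oocyte, in libraries that share none with the first comparison. Of 54 zinc finger genes tested, 21 were higher in oocytes, 25 were lower and 8 did not pass. Over all 19202 rows tested, 89.6% passed, 48.2% higher and 41.4% lower in oocytes, so most rows passed in this comparison. With a fold of at least 4 as well, 9 were higher and 21 lower, 30 in all, beside 65.8% of all rows (35.7% higher, 30.1% lower). The median log2 fold change was -0.42 for the zinc finger genes and 0.34 for all rows, and the groups did not overlap for 41 of the 54, beside 81.9% of all rows. With library totals the split changed to 11 higher and 32 lower, beside 7444 higher and 9769 lower of all 19202 rows, and the medians to -1.48 for the zinc finger genes and -0.71 for all rows.

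ZNF529 had the smallest p. Whole oocytes held 160, 329, 255 and 233 CPM, in the order of oocytes 2, 3, 6 and 16, and cumulus libraries 4.44 to 5.59 CPM with a median of 5.05. Every oocyte was far above every cumulus library, with a log2 fold change of 5.60 ± 0.18 (SE, adjusted p = 2.78e-12 by edgeR). ZNF845 followed, at 251, 463, 511 and 363 CPM in the same oocytes against 10.3 to 17.1 CPM in cumulus, a log2 fold change of 4.95 ± 0.19 (SE, adjusted p = 1.27e-11 by edgeR).

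ZNF280D stood at 115, 419, 356 and 334 CPM in oocytes 2, 3, 6 and 16, against 13.0 to 19.8 CPM in cumulus. Oocyte 2 was the lowest for ZNF280D, ZNF529 and ZNF845, and was still above every cumulus library for each. ZNF461, known in the rat as a gonadotropin-induced repressor of the ovary (GIOT1), had 28.7, 22.9, 60.01 and 38.1 CPM in oocytes and 2.70 to 4.74 CPM in cumulus, a log2 fold change of 3.35 ± 0.25 (SE, adjusted p = 1.19e-08 by edgeR). ZFP90, a KRAB gene, averaged 79.9 ± 17.0 CPM in oocytes (SD, n = 4) and 17.3 ± 2.35 CPM in cumulus (SD, n = 8). Both ZNF461 and ZFP90 had biopsy and granulosa levels whose difference did not pass, at log2 fold changes of 0.33 and 0.67 (adjusted p = 0.531 and 0.0707 by edgeR).

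The other genes among the 12 of smallest p that were higher in oocytes spanned a wide range of levels. ZNF232 averaged 22.9 ± 6.84 CPM in oocytes (SD, n = 4) and 1.24 ± 0.549 CPM in cumulus (SD, n = 8). ZNF569 averaged 59.0 ± 22.1 and 11.3 ± 2.23 CPM, ZNF729 56.7 ± 32.3 and 9.93 ± 1.86 CPM, and ZNF829 23.99 ± 8.17 and 6.96 ± 0.669 CPM in oocytes and cumulus. ZNF583 averaged 59.1 ± 12.1 and 18.6 ± 2.26 CPM, and ZNF407 34.2 ± 4.48 and 13.8 ± 1.2 CPM, with the same n for all 5. None of these 6 genes had an oocyte that overlapped a cumulus library. With library totals the call of ZNF407 ended. With matched biopsies in place of whole oocytes, those of ZNF569 (adjusted p = 0.0576 by edgeR) and ZNF829 (0.675) ended.

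Genes lower in oocytes included several that were near 0 there and steady in cumulus. ZNF282, whose human protein was found as a binder of a retroviral promoter, had 0.447, 0.0897, 0 and 0.171 CPM in oocytes 2, 3, 6 and 16, against 25.5 to 28.1 CPM in cumulus. The groups lay far apart, with a log2 fold change of -7.07 ± 0.40 (SE, adjusted p = 6.70e-10 by edgeR), or -8.19 without oocyte 2. ZNF580 had 2 counts over the 4 oocytes and 758 over the 8 cumulus libraries, a ratio of cumulus over oocytes of 199 with a 95% counting interval of 55.0 to 1.65e+03 (exact binomial).

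ZNF579 and ZNF865 neighbour ZNF580 in the RefSeq order, and all 3 were lower in oocytes. ZNF579 averaged 0.501 ± 0.377 CPM in oocytes (SD, n = 4) and 23.6 ± 2.49 CPM in cumulus (SD, n = 8), and ZNF865 averaged 0.878 ± 0.294 and 12.5 ± 2.24 CPM. The log2 fold changes were -5.51 and -3.79, with adjusted p of 1.95e-08 and 7.04e-09 (edgeR). In biopsies against granulosa none of the 3 passed, at adjusted p of 0.554 for ZNF580, 0.184 for ZNF579 and 0.172 for ZNF865, where granulosa itself held little of them. On 1 scale over all libraries, ZNF579 lay between 24.1 and 33.4 CPM in cumulus and between 0.144 and 3.1 CPM in granulosa.

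Others of the 12 lower genes of smallest p kept a measurable level in cumulus as well. ZNF543 averaged 11.98 ± 2.87 CPM in oocytes (SD, n = 4) and 67.2 ± 6.32 CPM in cumulus (SD, n = 8), the highest cumulus level among these 12. ZNF213 averaged 0.152 ± 0.250 and 13.0 ± 1.03 CPM in oocytes and cumulus, and ZNF446 0.140 ± 0.126 and 7.37 ± 1.10 CPM. Oocyte 2 held the most of both, and without it their log2 fold changes were -8.43 in place of -6.20 for ZNF213 and -6.33 in place of -5.54 for ZNF446. ZNF696 averaged 0.255 ± 0.0675 and 6.99 ± 0.831 CPM, ZNF175 2.09 ± 0.708 and 14.4 ± 1.65 CPM, and ZNF605 2.84 ± 0.775 and 15.9 ± 2.02 CPM, with n = 4 oocytes and n = 8 cumulus libraries throughout.

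The same 3 of the 5 members on X were lower in oocytes too. ZNF41 averaged 0.299 ± 0.267 CPM in oocytes and 4.76 ± 0.848 CPM in cumulus, ZNF81 0.837 ± 1.24 and 3.12 ± 0.788 CPM, and ZNF157 0.0224 ± 0.0448 and 1.25 ± 0.302 CPM (SD, n = 4 and n = 8). ZNF81 was the only one of them in which an oocyte overlapped cumulus, and that was oocyte 3, without which its log2 fold change was -3.75 in place of -1.89. Without the same oocyte ZNF157 stood at -6.85 in place of -5.29, and without oocyte 16 ZNF41 stood at -4.71 in place of -3.94.

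Among the genes tested here, ZSCAN25 and ZNF488 had no count in any whole oocyte, nor did ZFP92, ZNF594, ZSCAN5B and ZSCAN9, which were too low to be tested. ZSCAN25, a SCAN gene, had 154 counts over the cumulus libraries and was at least 27.02-fold lower in oocytes, taking 3 counts over the 4 oocytes as the limit that 0 allows. ZNF488, known from the nervous system as a repressor in myelin-forming cells, had 87 counts over cumulus and was at least 15.3-fold lower by the same limit. ZNF484, the gene of largest difference in biopsies, did retain RNA in whole oocytes, at 4.47, 0.897, 2.96 and 1.97 CPM in oocytes 2, 3, 6 and 16. These values were all below the 17.7 to 28.5 CPM of cumulus, with a log2 fold change of -3.1 (adjusted p = 5.78e-07 by edgeR).

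**Figure D2:**
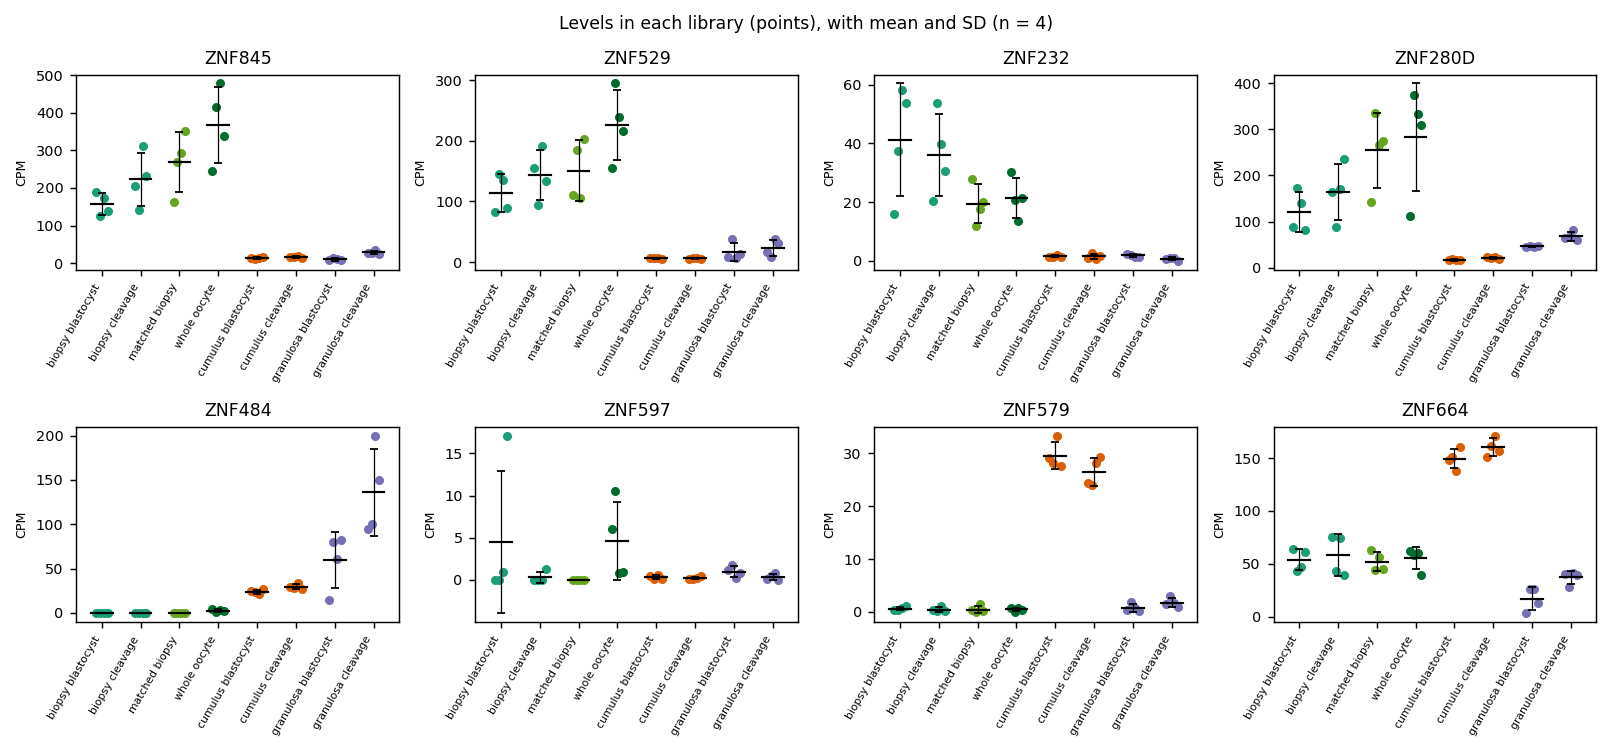
Level of 8 genes in each library, in CPM with 1 scaling over all 32 libraries; points are libraries, and bars give the mean and SD of 4. ZNF845, ZNF529, ZNF232 and ZNF280D are highest in biopsies and oocytes, ZNF484 is lowest there, ZNF597 is 0 in the matched biopsies and above 0 in every whole oocyte, and ZNF579 and ZNF664 are highest in cumulus.

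The 2 oocyte against somatic comparisons could be read side by side, since they share no library. Of 53 genes tested in both, 28 passed in both, and 21 of these had the same sign. Over all rows, 58.2% passed for biopsies against granulosa and 89.6% for oocytes against cumulus. The shares of all rows that passed in both or had the same sign were not computed. The joint counts and correlations below therefore do not set the zinc finger genes apart from other rows. The genes higher in both were ZBTB6, ZFP69B, ZNF232, ZNF280D, ZNF529, ZNF583 and ZNF845, although with library totals ZBTB6 had a log2 fold change of -0.039 in oocytes over cumulus and ZFP69B passed in neither comparison. With matched biopsies in place of whole oocytes, ZBTB6 (0.053, adjusted p = 0.850 by edgeR) and ZFP69B (0.19, 0.655) did not pass over cumulus. The 7 genes higher in both are 77.8% of the genes higher in biopsies and 33.3% of those higher in oocytes. Lower in both were 14 genes: ZNF157, ZNF175, ZNF213, ZNF285, ZNF333, ZNF41, ZNF484, ZNF584, ZNF605, ZNF606, ZNF696, ZNF793, ZNF81 and ZSCAN25. Single libraries moved 5 of them by more than 1.5-fold in both comparisons, namely ZNF41, ZNF81 and ZNF157, whose values are given above, and ZNF285 and ZNF333. For biopsies over granulosa, ZNF285 stood at -4.27, or -5.00 without the biopsy of B21 and -5.04 without that of D29, and for oocytes over cumulus at -2.42, or -4.94 without oocyte 2. ZNF333 stood at -3.40, or -4.29 without the biopsy of B14, and at -5.26, or -5.97 without oocyte 16. ZSCAN25 stood at -2.90 in biopsies over granulosa, or -4.26 without the biopsy of D24, and did not pass within either fate alone. These 14 are 48.3% of the genes lower in biopsies and 56% of those lower in oocytes. Across the 53 genes, the 2 log2 fold changes had a Pearson correlation of 0.57 and a Spearman correlation of 0.58, as a description over genes, which are not independent replicates.

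**Figure D3:**
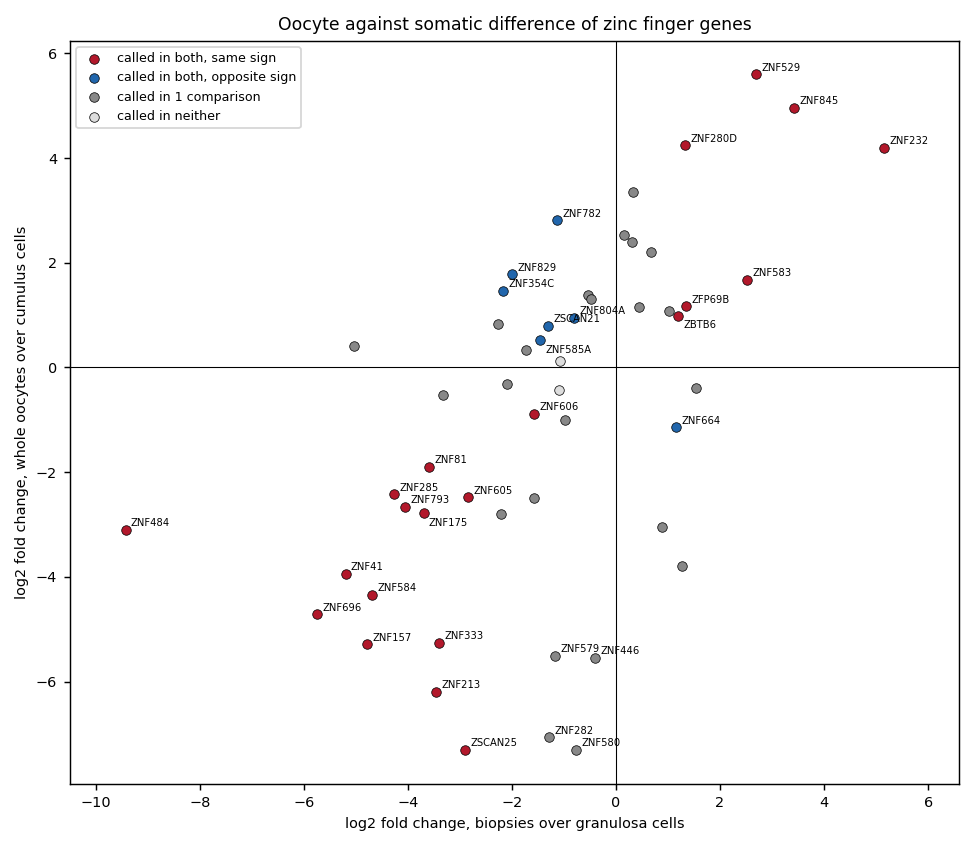
Each point is 1 of the 53 zinc finger genes tested in both comparisons; the horizontal axis gives the log2 fold change of biopsies over granulosa and the vertical axis that of whole oocytes over cumulus. The lower left holds the 14 genes lower in both and the upper right the 7 higher in both, while blue points mark the 7 genes called with opposite signs.

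Opposite signs in the 2 comparisons, each past the threshold, were found for 7 genes. ZNF664 was higher in biopsies than in granulosa (63.8 ± 16.8 and 30.7 ± 15.4 CPM, SD, n = 8 each) and lower in oocytes than in cumulus (59.1 ± 11.04 CPM with n = 4 and 130 ± 8.52 CPM with n = 8, SD). On 1 scale over all libraries, ZNF664 averaged 56.0 ± 14.7 CPM in fate-labelled biopsies (SD, n = 8) and 55.1 ± 10.5 CPM in whole oocytes (SD, n = 4), while cumulus lay between 138 and 171 CPM and granulosa between 3.44 and 41.0 CPM. ZNF354C, ZNF585A, ZNF782, ZNF804A, ZNF829 and ZSCAN21 were lower in biopsies than in granulosa and higher in oocytes than in cumulus. ZNF354C had log2 fold changes of -2.17 in biopsies over granulosa, with -2.98 without the biopsy of B21 and -2.90 without that of B14, and 1.47 in oocytes over cumulus, with 0.72 without oocyte 3. The second call ended with library totals (0.27, adjusted p = 0.413 by edgeR), and the first ended within each fate alone, as did those of ZNF782 and ZNF829. With matched biopsies in place of whole oocytes, ZNF354C (0.31, adjusted p = 0.663 by edgeR) and ZNF829 (0.39, 0.675) did not pass over cumulus. With library totals, 3 of these 7 genes had the opposite sign in oocytes over cumulus, at log2 fold changes of -0.53 for ZNF585A, -0.037 for ZNF804A and -0.21 for ZSCAN21. ZNF585A then passed as lower in oocytes (adjusted p = 0.0442 by edgeR), and ZNF804A and ZSCAN21 did not pass.

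ZNF782 had the largest log2 fold change in oocytes over cumulus among these 7. Oocytes 2, 3, 6 and 16 held 15.7, 65.5, 21.2 and 18.2 CPM, against 3.52 to 5.24 CPM in cumulus, and the log2 fold change was 2.81, or 2.09 without oocyte 3. Biopsies averaged 18.6 ± 13.98 CPM and granulosa 39.1 ± 8.45 CPM (SD, n = 8 each). The call of ZSCAN21 ended without oocyte 16 (adjusted p = 0.316), which held the most of it. ZNF585A, at a log2 fold change of 0.52 in oocytes over cumulus, was no longer called when any of 5 single libraries was left out, at adjusted p of 0.117 without oocyte 2 and 0.0506 to 0.0612 without cumulus libraries 5, 8, 9 or 11.

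Levels in cumulus and granulosa are set side by side as a description, since the 2 cell types sit in separate tables. In cumulus, ZNF213, ZNF282, ZNF446, ZNF579, ZNF580, ZNF664, ZNF783 and ZNF865 lay above every granulosa library with a mean over 4-fold higher. The reverse held for ZFP37, ZNF169, ZNF285, ZNF782, ZNF81 and ZNF883. These are 12.7% and 9.52% of the members with 80 counts or more over the 16 libraries, beside 8.97% and 6.80% of all such rows. ZNF169 averaged 2.18 ± 0.504 CPM in cumulus and 17.3 ± 8.14 CPM in granulosa, and ZNF865 14.8 ± 2.64 and 0.546 ± 0.539 CPM (SD, n = 8 each).

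Gene order gave no single direction. In RefSeq's ARS-UCD2.0 annotation, 59 of the 64 genes were found by symbol, 24 of them on the chromosome that holds most and 5 on X, and 31 lay in 12 runs in which neighbouring members were at most 20 entries apart. The longest run held 7 genes, ZNF567, ZNF461, ZNF260, ZNF829, ZNF793, ZNF585A and ZNF569. Within it, oocytes against cumulus gave log2 fold changes from -2.66 for ZNF793 to 3.35 for ZNF461, and biopsies against granulosa from -4.05 for ZNF793 to 0.33 for ZNF461. ZNF829 and ZNF585A of this run are among the genes with opposite signs in the 2 comparisons. In the run of ZNF41, ZNF81 and ZNF157, all 3 genes were lower in both.

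Likeness of pattern was measured for the leading genes. Over the 32 libraries, log2(CPM + 1) of ZNF484 was most like that of ZNF793 (Pearson 0.926), ZNF41 (0.925) and ZNF696 (0.916). ZNF529 was most like ZNF845 (0.947), ZNF280D (0.936) and ZNF232 (0.852). These values are descriptions, and they share the contrast between cell types, the depth and the table of each library.

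Partners of zinc finger proteins in silencing were looked up from a list of 45 symbols, of which 5 stood in the tables. In biopsies against granulosa 2 of the 5 were higher and 1 lower, and in whole oocytes against cumulus 2 were higher and 3 lower. Over all rows, 30.9% were higher and 27.3% lower in biopsies, and 48.2% were higher and 41.4% lower in oocytes. FAM208A, which encodes the TASOR subunit of the HUSH silencing complex, averaged 220 ± 39.2 CPM in biopsies and 148 ± 78.4 CPM in granulosa (SD, n = 8 each), and 322 ± 86.4 CPM in oocytes (n = 4) against 76.9 ± 14.7 CPM in cumulus (n = 8, SD). Its log2 fold change in biopsies over granulosa was 0.73 (adjusted p = 0.0201 by edgeR), and the sign turned in the cleavage groups alone, at -0.030. That call ended with library totals (adjusted p = 0.385), with the follicle as a block (0.118), without granulosa libraries B20 and D27 (0.0973), without granulosa B23 (0.0604), and without the biopsies of B20 (0.0592), B21 (0.0545), D24 (0.0512), D10 (0.0695) or D29 (0.0540). H1FX, a somatic linker histone, was lower in both, with log2 fold changes of -3.99 and -8.07, but the first call ended in the blastocyst groups alone (-2.13, adjusted p = 0.0758 by edgeR). MTA1, a subunit of the NuRD complex, averaged 0.614 ± 0.620 CPM in oocytes and 15.4 ± 1.57 CPM in cumulus, and KIAA1551, the gene of a retroelement silencing factor, 288 ± 103 and 566 ± 163 CPM (SD, n = 4 and n = 8). H1FOO, the oocyte linker histone, was the other gene higher in both. It also stands on the list of oocyte markers, so its direction was known beforehand and says nothing about silencing partners.

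Zinc finger genes with names of another pattern numbered 11 in the tables. In biopsies against granulosa 3 were higher and 4 lower of 11 tested, beside 30.9% higher and 27.3% lower of all rows. In oocytes against cumulus 5 were higher and 2 lower of 9, beside 48.2% higher and 41.4% lower of all rows. ZCCHC6 and ZCCHC11 encode enzymes that add uridines to RNA tails and are needed in mouse oocytes. ZCCHC6 averaged 206 ± 92.1 CPM in oocytes (n = 4) and 41.9 ± 4.83 CPM in cumulus (n = 8, SD), a log2 fold change of 2.30. ZCCHC11 was higher in oocytes than in cumulus (108 ± 24.9 and 61.6 ± 5.75 CPM) and lower in biopsies than in granulosa (66.8 ± 18.1 and 126 ± 45.7 CPM). For oocytes over cumulus the log2 fold change of ZCCHC11 was 0.81. With library totals ZCCHC11 passed as lower there instead, at -0.29 (adjusted p = 0.0418 by edgeR). For biopsies over granulosa its log2 fold change was -0.85, but 0.073 in the blastocyst groups alone. ZIC1, a developmental transcription factor, averaged 3.02 ± 2.74 CPM in biopsies and 0.103 ± 0.141 CPM in granulosa (SD, n = 8 each).

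The repressor REST silences neuronal genes, and RefSeq names a second row RESTA; how reads were divided between the 2 rows is not given in the sources used here. RESTA was lower in biopsies than in granulosa (12.6 ± 7.04 and 86.4 ± 41.2 CPM, SD, n = 8 each) and lower in oocytes than in cumulus (21.5 ± 8.98 and 53.8 ± 6.26 CPM, SD, n = 4 and n = 8). Within the blastocyst groups alone, the first of these calls ended, at a log2 fold change of -1.26 (adjusted p = 0.0705 by edgeR). REST was higher in oocytes than in cumulus (135 ± 48.0 and 62.6 ± 6.91 CPM, SD, n = 4 and n = 8), a call that ended with library totals at a log2 fold change of 0.024. Between biopsies and granulosa, the log2 fold change of REST was 0.054 and did not pass (adjusted p = 0.897 by edgeR). ZC3H6 was lower in both comparisons, at log2 fold changes of -4.10 and -4.23, and ZDHHC1 was lower in biopsies than in granulosa, at -2.84, a call that ended in the cleavage groups alone (-1.37, adjusted p = 0.339 by edgeR). ZCCHC18 was higher in both, at 1.41 and 3.44, but its call in biopsies over granulosa ended with library totals (adjusted p = 0.117), with the follicle as a block (0.0690), without granulosa B23 (0.0551) and without the biopsies of D24 (0.137) or D29 (0.0587). The call of ZCCHC6 in biopsies over granulosa (0.58, adjusted p = 0.0443 by edgeR) ended with the follicle as a block (0.111), with library totals (0.926) and without each of 14 of the 16 single libraries. ZC3H13 had a log2 fold change of 0.33 in oocytes over cumulus (adjusted p = 0.0271 by edgeR), a call that ended without each of 8 single libraries. With library totals ZC3H13 passed as lower in oocytes instead, at -0.74 (adjusted p = 0.000366 by edgeR).

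The matched biopsies were set against whole oocytes of the same number, which asks whether a biopsy carries the zinc finger RNA of the oocyte. Of 39 genes tested, edgeR called 0, as it did for 0% of all 18540 rows. An unadjusted p under 0.05 was found for 1 zinc finger gene, beside 1028 of all rows. DESeq2 called 2 zinc finger genes, both lower and both among those with too few counts for the edgeR fit, beside 76 higher and 114 lower of all 37247 rows. The log2 fold change was negative for 29 of the 39 genes (74.4%), beside 51.9% of all rows, and its median was -0.35 for the zinc finger genes and -0.026 for all rows. With library totals 16 were positive, and the medians were -0.23 and 0.11.

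The lower share was not the same for each pair. Of the 39 genes, the biopsy lay below the oocyte for 23 in pair 2, 30 in pair 3, 28 in pair 6 and 20 in pair 16, which is 59.0%, 76.9%, 71.8% and 51.3%. Over all rows these shares were 53.2%, 53.7%, 50.8% and 51.9%. The summed level of the 39 genes was 724, 990, 895 and 1101 CPM in the biopsies of pairs 2, 3, 6 and 16, against 839, 1336, 1215 and 1105 CPM in the oocytes. Pairs 3 and 6 showed the lower sums most plainly, and pair 16 showed almost none. With the oocyte number as a block the median was -0.54, 0 genes were called and 9 of 39 had an unadjusted p under 0.05. Over all rows the median was then -0.11, 0 of 18540 were called, and 524 higher and 738 lower had an unadjusted p under 0.05.

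**Figure D4:**
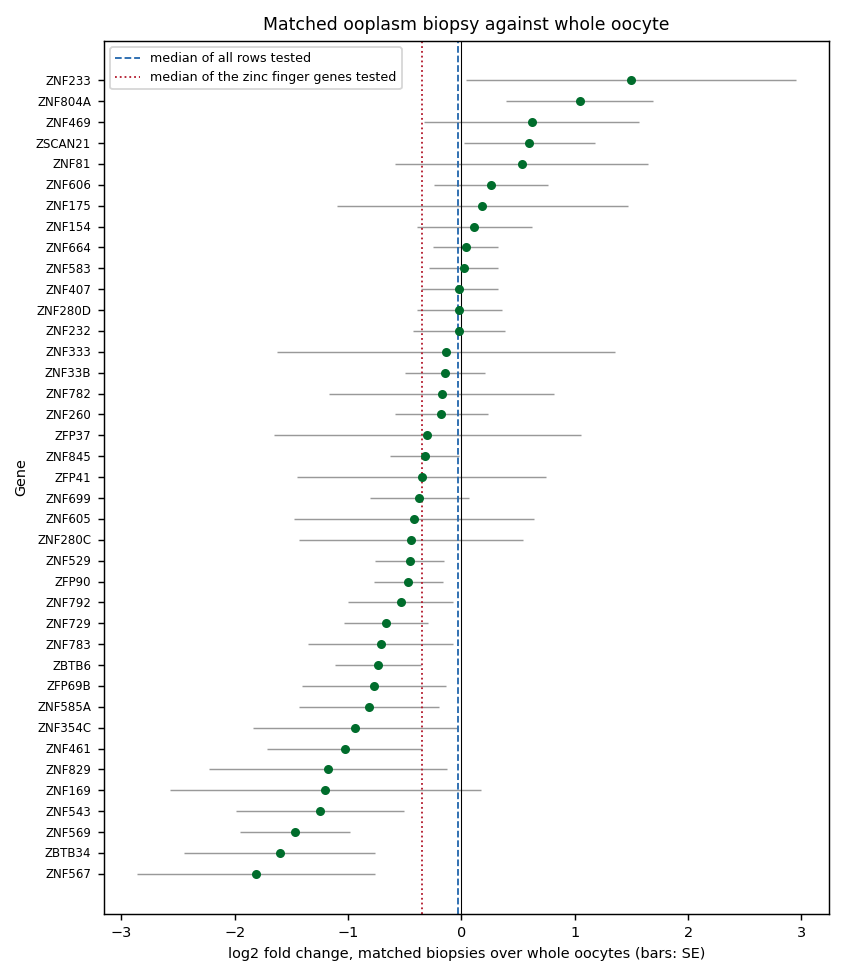
Log2 fold change of matched biopsies over whole oocytes (horizontal axis, with its standard error) for each of the 39 zinc finger genes tested (vertical axis), from 4 biopsies and 4 oocytes; the dashed line is the median of all rows and the dotted line that of the zinc finger genes. Most points lie left of 0, at a median of -0.35 beside -0.026 for all rows, and no gene passed the threshold.

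ZNF569, a KRAB gene, had the smallest p of the 39. Biopsies 2, 3, 6 and 16 held 25.9, 4.83, 10.2 and 13.8 CPM, against 47.4, 52.1, 23.1 and 28.5 CPM in the oocytes of the same numbers. The biopsy was lower in 4 of 4 pairs, but biopsy 2 lay above oocyte 6, so the groups overlapped. The log2 fold change was -1.47 ± 0.49 (SE) and did not pass (adjusted p = 0.695 by edgeR).

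The next genes by p also had large errors. ZBTB6, a BTB gene, held 23.1, 11.8, 14.7 and 35.6 CPM in the biopsies and 42.1, 29.6, 37.9 and 32.5 CPM in the oocytes, so that pair 16 went the other way. ZBTB34 held 3.07, 0.789, 1.88 and 0.112 CPM against 5.26, 3.84, 5.67 and 3.002 CPM, and ZNF567 held 0, 1.996, 0.204 and 2.86 CPM against 2.68, 4.85, 6.08 and 4.31 CPM in biopsies and oocytes. ZNF729 held 19.1, 23.7, 23.1 and 24.5 CPM in biopsies and 22.3, 64.8, 30.9 and 25.6 CPM in oocytes. These last 3 genes were lower in 4 of 4 pairs, and none of the 4 passed (adjusted p between 0.893 and 0.920 by edgeR).

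Among the 39 genes, ZNF585A was the only one whose biopsies and oocytes did not overlap, beside 4.22% of all rows. It held 5.16, 5.52, 4.28 and 0.672 CPM in biopsies and 7.70, 6.63, 7.31 and 5.84 CPM in oocytes, with a log2 fold change of -0.81 (adjusted p = 0.952 by edgeR). The 3 most abundant oocyte genes, at 100 to 1000 CPM, all had negative log2 fold changes. Their median was -0.32, beside -0.19 for all rows in that range. ZNF845 held 120, 204, 219 and 264 CPM in biopsies and 168, 288, 323 and 232 CPM in oocytes, ZNF529 had a log2 fold change of -0.46, and ZNF280D one of -0.021. ZNF232, ZNF407, ZNF583 and ZNF664 had log2 fold changes between -0.024 and 0.038.

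The share of genes with a negative log2 fold change varied with level. All 12 genes with a mean of 10 to 30 CPM were negative, beside 49.99% of all rows in that range. Of the 4 genes at 30 to 100 CPM 25% were negative, beside 57.8% of all rows. At 1 to 3 and at 3 to 10 CPM, 66.7% of 9 genes each were negative, beside 44.9% and 45.3% of all rows. At 100 to 1000 CPM it was 100% of 3 genes, beside 72.2% of all rows. The genes were measured in the same 4 pairs and are not independent of each other.

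A pair of genes too low to be tested in this comparison was near 0 in the biopsies. ZNF597, maternally expressed and imprinted in human, had 0 counts in all 4 biopsies and 237 over the 4 oocytes, where it stood at 4.12, 7.35, 0.585 and 0.655 CPM. It was at least 78.9-fold lower in biopsies, taking 3 counts over the 4 biopsies as the limit that 0 allows. ZNF484 had 4 counts over the biopsies and 125 over the oocytes, at 0.139, 0, 0.102 and 0 CPM against 2.98, 0.557, 1.87 and 1.26 CPM. With no low-count filter, edgeR called ZNF597 (adjusted p = 0.0164) and not ZNF484 (0.399), and DESeq2 called both (4.55e-05 and 0.0120).

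The fate-labelled biopsies gave a second look at ZNF597. It had 0 counts in the biopsies of B20, B21, B14, B23 and D10, and 15 in D24, 320 in D27 and 22 in D29. Biopsies with 0 counts were present in both sets, and 3 fate-labelled biopsies held the RNA. ZNF696 ran the other way, with 122 counts over the matched biopsies and 12 over the whole oocytes, at 0.0697, 3.16, 1.07 and 1.79 CPM against 0.149, 0.167, 0.117 and 0.218 CPM.

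Fate was compared within each cell type, blastocyst group against cleavage group, to ask whether zinc finger RNA differed with the oocyte's later development. In granulosa, 59 genes were tested, of which 2 were higher and 1 was lower in the blastocyst group and 56 did not pass. Over all 22934 rows 21.6% passed, 21.3% higher and 0.349% lower. The groups did not overlap for 15 of the 59 genes, beside 38.4% of all rows. The median log2 fold change was -0.32 for the zinc finger genes and 0.098 for all rows, with 0.23 and 0.70 under library totals and -0.037 and 0.48 under DESeq2's size factors, so the sign of the zinc finger median turned with the scaling. Over the 1090 tested rows with a symbol, the median was 0.47 with edgeR's scaling factors.

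The granulosa groups differed in other ways that are set beside these results. H1FOO had 338, 154, 95 and 207 counts in the granulosa libraries of B20, B21, D24 and D27 (blastocyst), against 7, 74, 4 and 8 in B14, B23, D10 and D29 (cleavage). MEG3 had 116, 86, 118 and 139 counts against 41, 6, 0 and 0 in the same order. XIST lay between 63.4 and 688 CPM in the blastocyst group and between 983 and 1150 CPM in the cleavage group, without overlap. H1FOO is an oocyte gene, and its log2 fold change of 2.69 did not pass (adjusted p = 0.0877 by edgeR). Zinc finger genes detected numbered 61 or 62 in a blastocyst library and 55 to 58 in a cleavage library. The part of these differences in the fate results was not tested.

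ZNF804A was higher in the blastocyst group. It stood at 124, 32.8, 35.8 and 85.2 CPM in the granulosa of B20, B21, D24 and D27, against 8.02, 15.1, 10.96 and 8.01 CPM in B14, B23, D10 and D29. The groups did not overlap, and the highest values came from B20 and D27. Its log2 fold change was 2.72 ± 0.53 (SE, adjusted p = 0.0116 by edgeR). It passed with any 1 library left out, at adjusted p from 0.00322 to 0.0343, but not without both B20 and D27 (1.78, adjusted p = 0.143).

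ZNF469, linked in human to brittle cornea syndrome, was the other gene higher in the blastocyst group. It stood at 47.9, 29.4, 46.5 and 63.0 CPM in B20, B21, D24 and D27, against 0.855, 13.2, 0.151 and 0.703 CPM in B14, B23, D10 and D29. The groups did not overlap, and B23 was far above the other cleavage libraries. The fitted log2 fold change was 3.66 ± 1.12 (SE, adjusted p = 0.0401 by edgeR), or 6.27 without B23 (adjusted p = 0.000776). Leaving out any of the other 7 libraries ended the call. The adjusted p was then 0.0515 for B20, 0.0533 for B21, 0.0616 for D24 and 0.0891 for D27, and 0.0745 for B14, 0.0535 for D10 and 0.0734 for D29.

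ZNF845 was lower in the blastocyst group. It stood at 10.6, 22.5, 18.1 and 11.1 CPM in B20, B21, D24 and D27, against 34.5, 39.7, 45.1 and 32.5 CPM in B14, B23, D10 and D29, with no overlap. This was a log2 fold change of -1.29 ± 0.40 (SE, adjusted p = 0.0418 by edgeR). It was no longer called with DESeq2's size factors, library totals, no filter or the label letter as a covariate, and it ended without each library except B21. By library left out, the adjusted p was 0.0555 for B20, 0.0531 for D24 and 0.120 for D27, and 0.0745 for B14, 0.0669 for B23, 0.103 for D10 and 0.0668 for D29.

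Other genes came close to the threshold in granulosa. ZNF569 stood at 11.9, 21.5, 33.6 and 23.2 CPM in the blastocyst group and 42.6, 31.2, 106 and 54.9 CPM in the cleavage group (log2 fold change -1.38, adjusted p = 0.0649 by edgeR). ZNF407 stood at 124, 51.0, 45.7 and 77.5 CPM, against 28.1, 44.5, 9.67 and 28.2 CPM (1.43, adjusted p = 0.0709 by edgeR), and passed with DESeq2's size factors and with library totals. ZNF354C stood at 27.7, 35.7, 21.5 and 23.8 CPM, against 62.1, 53.6, 41.3 and 53.4 CPM (-0.95, adjusted p = 0.0733 by edgeR). ZSCAN5B, too low for the edgeR fit, had 142 counts over the blastocyst libraries and 0 over the cleavage libraries. It stood at 6.53, 0.181, 1.47 and 1.10 CPM in B20, B21, D24 and D27, so that B20 held the most, and no fold is given. With no low-count filter, edgeR called ZSCAN5B higher (adjusted p = 0.00923), beside 7025 higher and 124 lower of all 35243 rows. DESeq2 called it higher as well (adjusted p = 2.69e-05), beside 11059 higher and 372 lower of all 35243 rows.

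**Figure D5:**
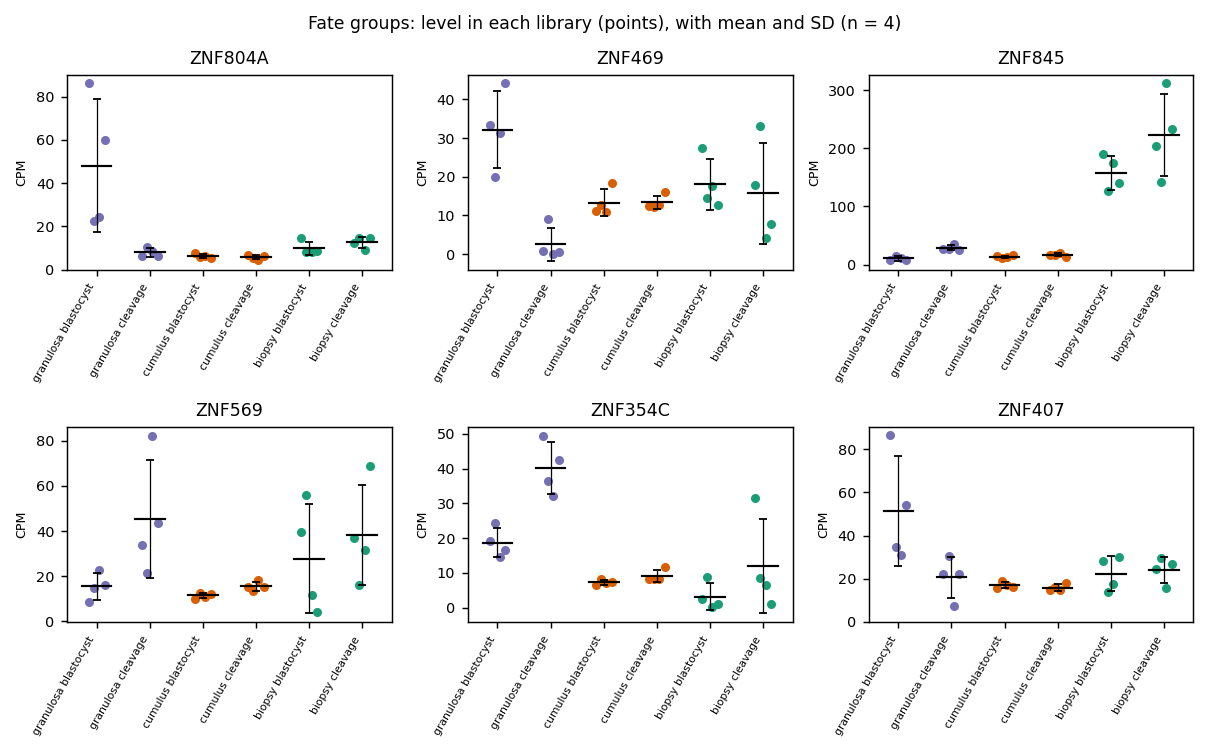
Level of 6 genes by fate in granulosa, cumulus and biopsies, in CPM with 1 scaling over all 32 libraries; each point is a library and bars give the mean and SD of 4, with the blastocyst group left of the cleavage group. ZNF804A and ZNF469 separate the granulosa groups and not the biopsies, and ZNF845 is lower in blastocyst granulosa.

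In cumulus, 53 genes were tested and edgeR called 0, as for 0% of all rows, with 12 genes at an unadjusted p under 0.05, beside 2249 of all 15410 rows. DESeq2 called 0, beside 27 higher and 132 lower of all 26278 rows. A negative log2 fold change was found for 36 of the 53 (67.9%), beside 49.3% of all rows. The groups did not overlap for 7 genes, beside 8.92% of all rows. These were ZNF260, ZNF484, ZNF569, ZNF580, ZNF583, ZNF606 and ZNF793.

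Differences in cumulus were small. ZNF569 had the smallest p, at 10.8, 13.6, 11.7 and 13.2 CPM in blastocyst libraries 9, 10, 11 and 12, against 16.3, 14.8, 19.4 and 16.5 CPM in cleavage libraries 5, 6, 7 and 8. Its log2 fold change was -0.44 ± 0.12 (SE, adjusted p = 0.168 by edgeR). ZNF793 stood at 8.08, 5.30, 5.79 and 6.62 CPM against 10.5, 9.01, 9.64 and 8.50 CPM, and ZNF580 at 10.3, 15.9, 14.1 and 11.1 CPM against 9.76, 9.93, 7.97 and 8.39 CPM in the same libraries. ZNF280D had a log2 fold change of -0.37 and ZNF484 one of -0.31, at adjusted p of 0.187 and 0.210 (edgeR).

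In biopsies, 43 genes were tested and edgeR called 0, as for 0% of all rows. An unadjusted p under 0.05 was found for 2 of them, beside 1017 of all 21174 rows. DESeq2 called 0, beside 118 higher and 64 lower of all 41575 rows. ZNF729 stood at 6.80, 42.0, 14.1 and 11.6 CPM in B20, B21, D24 and D27, against 109, 49.9, 33.4 and 19.4 CPM in B14, B23, D10 and D29. The groups overlapped, with a log2 fold change of -1.51 (adjusted p = 0.990 by edgeR). ZNF792 was the only one of the 43 without overlap, beside 3.51% of all rows, at 23.3, 21.5, 17.2 and 23.5 CPM against 3.05, 14.4, 2.17 and 13.0 CPM.

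ZNF845, called in granulosa, did not pass in biopsies. It stood at 182, 116, 163 and 127 CPM in the blastocyst group and 197, 145, 287 and 214 CPM in the cleavage group, with overlap and a log2 fold change of -0.52. ZNF280C had a log2 fold change of -2.63, but 0.30 without the cleavage biopsy of D29, and ZBTB6 one of -0.75. ZNF280C and ZBTB6 did not pass either.

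The difference between the fate effects in granulosa and in biopsies was tested directly, as an interaction over the 16 libraries of both. An unadjusted p under 0.05 was found for 6 of 62 genes, beside 7359 of all 28229 rows. Of the 62 genes, 1 passed after adjustment, beside 6.9% of all rows (6.35% higher and 0.549% lower). ZNF804A was that gene, with a difference of 2.95 ± 0.68 on the log2 scale (SE, adjusted p = 0.0213 by edgeR). In this fit its granulosa levels were 98.6, 25.3, 27.4 and 68.2 CPM in the blastocyst group and 7.28, 11.7, 9.67 and 7.24 CPM in the cleavage group. Its biopsy levels were 16.4, 9.41, 9.49 and 9.87 CPM in the blastocyst group and 13.96, 16.5, 10.1 and 16.7 CPM in the cleavage group.

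The interaction of ZNF804A depended on granulosa libraries B20 and D27. It did not pass without B20 (2.51, adjusted p = 0.0590), without D27 (2.83, 0.0533), without both (2.09, 0.218) or without a filter on low counts (2.65, 0.0557), and it was 3.62 without the biopsy of B20. The next genes by p did not pass: ZSCAN5B at 7.63 (adjusted p = 0.0686 by edgeR), ZNF469 at 3.44 (0.0946), ZNF584 at 3.42 (0.148) and ZNF407 at 1.44 (0.178). ZNF845, called in granulosa, had a difference of -0.93 that did not pass (adjusted p = 0.213 by edgeR).

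Silencing partners and zinc finger genes of other names were looked up by fate too. None of the 5 partners passed in granulosa, cumulus or biopsies. Over all rows, 21.3% were higher and 0.349% lower in blastocyst granulosa, and 0% passed in cumulus or biopsies. Of the other zinc finger genes, 1 of 10 tested was higher in blastocyst granulosa and 0 lower, with 0 called in cumulus or biopsies. That gene was ZIC4, at 3.77 ± 2.06 CPM in the blastocyst group and 0.159 ± 0.319 CPM in the cleavage group (SD, n = 4 each). Its log2 fold change was 4.59 (adjusted p = 0.0387 by edgeR). Leaving out any of 7 libraries ended the call, with an adjusted p of 0.0639 for B20, 0.0601 for B21, 0.0522 for D24, 0.110 for D27, 0.0662 for B14, 0.0720 for D10 and 0.0687 for D29, and leaving out both B20 and D27 gave 0.265. By the interaction of fate and cell type, REST (-2.07, adjusted p = 0.0498 by edgeR) and RESTA (-2.26, adjusted p = 0.0338) had lower fate effects in granulosa than in biopsies. Neither passed with library totals (adjusted p = 0.124 and 0.0640), without both B20 and D27 (0.325 and 0.231), or with either of these granulosa libraries left out alone. The call of REST ended without each of 14 of the 16 libraries and that of RESTA without each of 10.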

How the data were processed

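RNA libraries were made with the SMART-Seq HT kit, per the labels' protocols. The authors trimmed, aligned and counted reads with tools that the submitters' processing notes name as Trim Galore, cutadapt, STAR and featureCounts, and deposited raw counts per gene in 4 tables of 8 libraries. Tool versions and build: not given in the sources used here. In all, 24 columns of the polar body table were not used. Gene order came from RefSeq's ARS-UCD2.0 annotation, with no coordinates.

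Counts were fitted over all rows of a comparison with edgeR 4.0.16 (limma 3.58.1, R 4.3.3), after filterByExpr and TMM scaling, with glmQLFit and glmQLFTest and Benjamini-Hochberg adjustment at 0.05. CPM are scaled within a comparison unless 1 scale over all 32 libraries is named. Biopsies against granulosa and the interaction used the 4 groups of biopsy and granulosa by fate. DESeq2 1.42.0, other scalings, no filter, a fold of 4, a label letter covariate, blocks and left-out libraries were alternatives. The alternatives within 1 fate, with matched biopsies for oocytes and, for the interaction, without B20 and D27 were chosen after seeing the data. Tables and figures used Python 3.11.15, pandas 2.3.3, numpy 2.4.6, scipy 1.17.1 and matplotlib 3.10.9. The fits were tested on simulated data. No 2 libraries of a group agreed within sampling noise.

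Named genes were up to 12 called in each direction by smallest p, or the 5 of smallest p where fewer than 5 were called, and genes called in more than 1 comparison. From the other lists, up to 6 called genes of smallest p per comparison were eligible. Genes outside this rule, such as ZNF597, ZNF696 among matched biopsies, ZNF865 and ZSCAN5B in granulosa, were chosen after their values were seen. The members and lists were chosen with earlier results of these data known. Biopsies and granulosa of 1 label come from the same follicle, per the series' design. Their deviations from the group mean correlated at -0.0225 to 0.115 for the same label. For different labels of a fate group these values ran from -0.118 to 0.0701, so the ranges overlapped. Matched biopsies and oocytes of 1 number correlated at 0.161 to 0.277. Biopsy 6 with oocyte 16 (0.183) and biopsy 16 with oocyte 6 (0.190) correlated above the pairs of number 6 (0.161) and 16 (0.171). The pairs therefore rest on the shared number, and these correlations do not single out each of them. Library totals give the depth, and intervals and limits cover counting error only, since reads without molecular identifiers are not independent molecules.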

Additional observations from a re-analysis of the deposited data

Results flagged for a closer look

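Within groups of 4 libraries, 18 of 267 tested values had 1 library far from the other 3, where chance gives about 1 in 20. All values here are CPM scaled within the comparison named.

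Among biopsies of the blastocyst group, ZFP69B reached 22.0 in B21 (next 5.24), ZNF175 3.05 in D27 (next 0.535), ZNF333 1.11 in B21 (next 0.670) and ZNF804A 16.4 in B20 (next 9.87). Among cleavage biopsies, ZNF280C reached 96.0 in D29 (next 7.62). In granulosa of the cleavage group, ZNF664 was lowest in B23, at 31.5 (next 44.6), and ZNF469 was highest in B23, at 13.2 (next 0.855). Whole oocyte 3 held the most ZNF782 (65.5, next 21.2) and ZNF81 (2.69, next 0.342) and the least ZNF543 (7.71, next 12.9), and oocyte 16 held the least ZNF664 (42.6, next 63.7).

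Cumulus libraries stood apart by less. ZNF232 reached 1.65 in blastocyst library 11 (next 1.18). Among cleavage libraries, ZNF583 reached 21.9 (next 19.6) and ZNF606 32.4 (next 25.4) in library 7, ZNF585A 8.56 in library 6 (next 7.85), and ZNF584 2.71 (next 1.96), ZNF354C 9.75 (next 6.95) and ZNF469 13.4 (next 10.7) in library 8.

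The fate effect on ZNF804A differed between granulosa and biopsies by 2.95 on the log2 scale, by the interaction test of edgeR (adjusted p = 0.0213).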

How the results depend on the processing

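For single named genes, 505 values under other settings kept their direction and side of the threshold, 51 lost and 10 gained the call and 6 changed sign. With 1 library left out these numbers were 1166, 42, 7 and 1. The cause of each change was not tested. Sign changed for ZNF804A in biopsies over granulosa within the cleavage groups (0.73), for ZBTB6 (-0.039), ZNF585A (-0.53), ZNF804A (-0.037) and ZSCAN21 (-0.21) in oocytes over cumulus with library totals, for ZNF585A there with matched biopsies (-0.49), and for ZNF280C by fate in biopsies without the cleavage biopsy of D29 (0.30, in a range of -3.69 to 0.30 with 1 library left out). Of these values, only that of ZNF585A with library totals passed in its new direction (adjusted p = 0.0442 by edgeR).

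For biopsies against granulosa, the 38 calls became 22 in the cleavage groups alone, the 9 higher became 4 at a fold of 4 and 5 with library totals, and the 29 lower became 16 in the cleavage and 16 in the blastocyst groups alone. For oocytes against cumulus, the 46 calls became 30 at a fold of 4, and the 21 higher became 9 at a fold of 4, 11 with library totals and 13 with matched biopsies. Matched biopsies over cumulus gave 8235 higher and 7688 lower of all 18711 rows. For matched biopsies against oocytes, the 0 calls became 1 with no filter and 2 in DESeq2. Over all rows these settings gave 4 higher and 9 lower, and 76 higher and 114 lower, of 37247. The 3 fate calls in granulosa became 5 with library totals, 10 in DESeq2 and 0 without B20 and D27. Over all rows these settings gave 6840 higher and 11 lower of 22934, 11059 and 372 of 35243, and 0 of 23577. The 1 interaction call became 4 with library totals, 0 with no filter, 4 in DESeq2 and 0 without B20 and D27. Over all rows, library totals gave 3718 higher and 65 lower of 28229, and no filter 1095 and 142 of 45487. DESeq2 gave 4736 and 913 of 45487, and the fit without B20 and D27 gave 43 and 2 of 30288. The median of all rows under library totals was -0.59, -0.71, 0.11, 0.70 and 0.80 in these 5 comparisons in order.

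With 1 library left out, calls ran from 36 to 41 for biopsies against granulosa (8 to 10 higher, 27 to 33 lower), from 45 to 49 for oocytes against cumulus (20 to 22 higher, 25 to 29 lower), from 1 to 7 by fate in granulosa and from 0 to 4 for the interaction, and from 0 to 0 for the other fits. The fate calls were 7 without cleavage B23, 5 without B21 and 1 without B20, D24 or D27. Over all rows, these fits gave 7950 higher and 181 lower of 24980 without B23, and 4896 and 456 of 24173 without B21. They gave 3108 and 54 of 23228 without B20, 4850 and 153 of 23997 without D24, and 2463 and 19 of 23129 without D27. With 1 library left out, biopsies against granulosa gave 8315 to 9382 higher and 7351 to 8605 lower of all rows. Oocytes against cumulus gave 9167 to 10033 higher and 7967 to 8519 lower, and the interaction 410 to 4773 higher and 23 to 340 lower.

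With the follicle as a replicate block, biopsies against granulosa gave 40 calls (8 higher, 32 lower), and of the named members only ZFP69B and ZNF804A lost theirs. Over all 28229 rows the block gave 7493 higher and 6899 lower. The median log2 fold change was then -0.27 over all rows and -1.84 for the zinc finger genes. With the oocyte number as a block, matched biopsies gave 0. No paired analysis was possible for cumulus because its columns carry no number that the sample titles tie to a follicle. Depth limits genes near 0 in oocytes and biopsies, which could not be told from absent.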
